A study of Mus musculus with 8 samples.

Results

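The 8 genes described here encode enzymes and regulators of fatty acid use: *Cpt1a*, *Acadm* and *Acadl* of mitochondrial fatty acid oxidation, *Pdk4* of the switch between glucose and fatty acids, *Angptl4* and *Plin2* of lipid delivery and storage, and the nuclear receptors *Ppara* and *Pparg*. They were chosen by name as targets of peroxisome proliferator-activated receptors (PPARs) or as PPARs themselves. The rule uses no measured value, but earlier results of these data were known when it was made. They are 8 of the 26008 genes in the table, and each of the 8 passed the filter on low levels (a mean over all libraries of 10 or more) and was tested. None of them encodes an enzyme of ketone body synthesis, and the genes of that pathway are described below from a separate list.

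PPARs are receptors for fatty acids and their derivatives. They bind DNA as dimers with a retinoid X receptor (RXR) at a direct repeat of a short motif with a single base between the repeats, named DR1, and raise the transcription of genes for fatty acid uptake, oxidation and storage. PPARα is best known from liver and PPARγ from adipose tissue, and the epithelium of the colon, which uses fatty acids such as butyrate as fuel, also makes PPARγ.

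RNA was sequenced from colon biopsies of 4 Penk-/- and 4 Penk+/+ chimeric mice, with 1 library per mouse. The recipients of both groups were irradiated wild-type males of the strain C57BL/6JRj, and the genotype is that of the engrafted bone marrow: in Penk-/- chimeras the marrow came from mice without *Penk*, the gene of the enkephalin precursor, and in Penk+/+ chimeras from mice that carry it. Epithelium, muscle and fat were therefore those of a wild-type host in both groups, the deletion was restricted to hematopoietic cells, and both groups had been irradiated and engrafted. Host hematopoietic cells that outlast irradiation carry *Penk* in either group. The comparison asked whether transcripts of fatty acid oxidation and of the PPARs differed in the colon when hematopoietic cells lacked *Penk*.

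The libraries held 33.1 M to 50.7 M reads (median 38.5 M), so the spread between mice, and not counting error, limited the precision for most of the 8 genes. The level of *Penk* itself was 528 ± 67.5 in Penk-/- against 541 ± 73.2 in Penk+/+ biopsies (normalized counts, SD, n = 4 per genotype), so that whole-tissue *Penk* does not check the genotype of the marrow. The 9 epithelial markers added up to between 341891 and 518264 normalized counts in the 8 libraries, so the biopsies carry the markers of their labelled tissue. *Pbsn*, a gene of the male accessory glands, reached 105658 normalized counts in Penk-/- replicate 3 and 111024 in Penk+/+ replicate 4 and was 13425 or lower in the other 6 libraries. Log2 differences that moved by more than 1.5 times without these 2 libraries, or crossed an unadjusted p of 0.05, are given below with and without them.

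The DR1 motif AGGTCANAGGTCA was searched on both strands within 5000 bases on either side of the start of each gene's canonical transcript, in the GRCm39 genome. No member held the exact motif, and none held it with 1 mismatch among its 12 fixed bases. All 8 held it with 2 mismatches, at 14 places, of which 10 lay upstream of the start and 4 in introns. Among 15168 protein-coding genes tested, 2.28% held the exact motif in a window of the same length, 20.46% held it with 1 mismatch or fewer and 77.6% with 2 or fewer, so a match with 2 mismatches does not set the 8 genes apart. To show which letters these are, 1 match per gene is given: for *Acadl* and *Angptl4* the match that shares all its 13 bases between the genes, and for the others the match nearest to the start. Each is written 5′ to 3′ on the strand that carries the motif, with the motif in capitals and 8 flanking bases on either side.
Cpt1a: agagtcgcAGCTCTGAGGTCAagcacgcc
Acadm: ccaagtaaAGGTCACAGCTGActgctaga
Acadl: gtcagctgAGGAGAAAGGTCAactgggca
Pdk4: ggagagatAGGTCAGTGATCAgggacttc
Angptl4: gggaaagtAGGAGAAAGGTCActggggga
Plin2: tctgacttAGGTCAGGGGTCCtgaaagct
Ppara: cttccaggAGATCAGAGGCCActatcctg
Pparg: caaataatAAGACACAGGTCAggttcata
The *Acadl* sequence lies in intron 1 (chr1:66897914-66897942, plus strand) and the *Angptl4* sequence in intron 3 (chr17:33998263-33998291, plus strand), and both genes are on the minus strand. The *Plin2* sequence (chr4:86588501-86588529, plus strand) begins closest to its gene, with the centre of the motif 56 bases upstream of the start. The motifs lie 337 bases upstream of *Acadm* (chr3:153650598-153650626, minus strand), 889 upstream of the canonical start of *Cpt1a* (chr19:3372368-3372396, minus strand; within the annotated extent of the gene and over an exon of *Gm58963*) and 2674 upstream of *Pparg* (chr6:115336565-115336593, minus strand). Those of *Ppara* (chr15:85616987-85617015, plus strand) and *Pdk4* (chr6:5500137-5500165, plus strand) lie 2838 and 3821 bases upstream. These are matches of letters and not measured binding sites.

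The 8 genes spanned a wide range of levels in the colon. Compared as normalized counts per kilobase of the canonical transcript over the 8 chimeras, the storage gene *Plin2* and the dehydrogenases *Acadm* and *Acadl* stood highest, *Cpt1a* followed, *Pparg* was intermediate, and *Ppara*, *Pdk4* and *Angptl4* were low. *Plin2* stood at 3356 ± 606, *Acadm* at 3322 ± 244 and *Acadl* at 3084 ± 264 per kilobase (SD, n = 8), and their ranges overlapped. *Cpt1a* stood at 1975 ± 287 per kilobase, with its highest library, 2299, below the lowest library of *Acadl*, 2757. *Pparg* amounted to 474 ± 62.0 and *Ppara* to 82.6 ± 15.5 per kilobase, and the receptors did not overlap. The level of *Ppara* is uncertain, because 50.8% of the exon bases of its canonical transcript overlap with *Cdpf1* on the opposite strand. *Pdk4*, at 55.3 ± 17.1 per kilobase, overlapped with *Ppara*, whereas *Angptl4*, at 15.7 ± 7.52, lay below *Pdk4* in the ranges over all libraries. The order depends on the length taken for each gene. Per kilobase of all annotated exons merged, *Acadl* stood highest at 1973, then *Cpt1a* at 1190, *Acadm* at 1085 and *Plin2* at 895, and *Pdk4* at 54.7 stood above *Ppara* at 44.5.

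**Figure D1:**
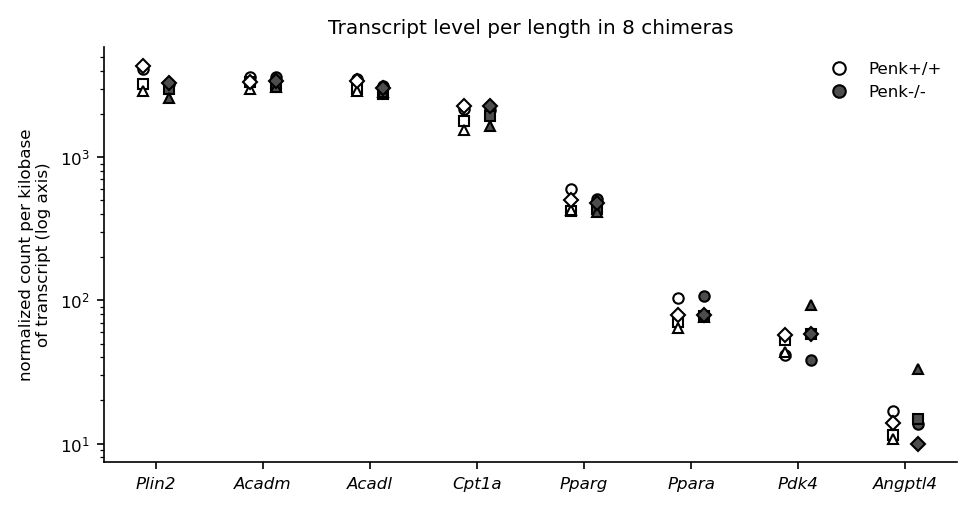
Normalized counts per kilobase of canonical transcript on a log axis, for the 8 genes in order of their mean, with 1 point per chimera (white, Penk+/+; dark, Penk-/-; marker shape, replicate number). *Plin2*, *Acadm* and *Acadl* overlap at the top, and *Angptl4*, at 15.7 on average, is lowest with 1 dark point, Penk-/- replicate 3, above the others.

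The genes also differed in how much they varied among mice. Over the 8 chimeras the coefficient of variation was 7.36% for *Acadm* and 8.57% for *Acadl*, the least among the 8 genes, and 13.1% to 18.8% for *Pparg*, *Cpt1a*, *Plin2* and *Ppara*. It was 30.9% for *Pdk4* and 48.0% for *Angptl4*.

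No difference between Penk-/- and Penk+/+ chimeras passed the test for any of the 8 genes. In limma on log2(normalized count + 1), 0 of the 8 had a Benjamini-Hochberg adjusted p below 0.05, 0 had an unadjusted p below 0.05, and the groups overlapped for every one of them. Over all 19127 genes tested, 0% had an adjusted p below 0.05, with limma and with its voom variant alike, 4.3% had an unadjusted p below 0.05 with a higher level in Penk-/- and 5.33% with a lower level, and the groups did not overlap for 2.89% (higher) and 2.74% (lower). With DESeq2, which was not run here, the authors reported a small number of differing genes between these groups. The largest mean differences among the 8 were a higher *Pdk4* and *Angptl4* and a lower *Plin2* in Penk-/- chimeras, each within the spread between mice. A p that misses the threshold does not show that the levels were equal, so the 95% interval of each fold is given below. In whole biopsies, fewer cells of a type and less RNA per cell cannot be told apart.

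CPT1A, carnitine palmitoyltransferase 1A, loads long-chain fatty acids onto carnitine for entry into mitochondria and sets the rate of their oxidation. *Cpt1a* (ENSMUSG00000024900, chr19:3371853-3437996 of GRCm39, the build of all positions given) measured 14099, 12785, 10825 and 15161 in Penk-/- replicates 1 to 4, against 14243, 11865, 10214 and 14973 in Penk+/+ replicates 1 to 4 (normalized counts). The lowest library of each group was replicate 3 and the groups covered almost the same range. The means were 13217 ± 1868 and, in Penk+/+, 12824 ± 2188 (SD, n = 4 each), a log2 difference of 0.05 (SE 0.14, adjusted p = 0.944 in limma). The fold of Penk-/- over Penk+/+ was 1.03, with a 95% interval of 0.832 to 1.29. Without both libraries rich in *Pbsn* the log2 difference was 0.22.

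ACADM and ACADL are the medium-chain and long-chain acyl-CoA dehydrogenases, which carry out the initial dehydrogenation of each round of β-oxidation. *Acadm* (ENSMUSG00000062908, chr3:153627989-153650317) measured 7501, 6346, 6422 and 6975 in Penk-/- replicates 1 to 4, against 7451, 6910, 6129 and 6960 in Penk+/+ replicates 1 to 4 (normalized counts). Replicate 1 was highest in each group, and the ranges were nearly the same. The log2 difference was -0.01 (SE 0.08, adjusted p = 0.981), and the 95% interval of the fold, 0.878 to 1.12, was the narrowest interval of the 8 on the log scale after that of *Acadl*. Without both libraries rich in *Pbsn* the log2 difference of *Acadm* was 0.02. *Acadl* (ENSMUSG00000026003, chr1:66868267-66902633) measured 7859, 6887, 7164 and 7588 in Penk-/- replicates 1 to 4, against 8746, 7553, 7263 and 8573 in Penk+/+ replicates 1 to 4 (normalized counts). Penk+/+ replicates 1 and 4 lay above all Penk-/- chimeras and the others overlapped. Its means were 7375 ± 433 and 8033 ± 735 (SD, n = 4 each), a log2 difference of -0.12 (SE 0.08, adjusted p = 0.660), and a fold of 0.92 with a 95% interval of 0.815 to 1.04. Without both libraries rich in *Pbsn* the log2 difference of *Acadl* was -0.07.

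PDK4 phosphorylates pyruvate dehydrogenase and thereby holds back glucose oxidation when fatty acids are used. *Pdk4* (ENSMUSG00000019577, chr6:5483097-5496339) measured 145, 220, 349 and 218 in Penk-/- replicates 1 to 4, against 156, 199, 163 and 214 in Penk+/+ replicates 1 to 4 (normalized counts). Penk-/- replicate 3 lay above all other libraries, and the lowest library was also Penk-/-. The means were 233 ± 84.7 and 183 ± 27.99 (SD, n = 4 each), a log2 difference of 0.29 (SE 0.24, adjusted p = 0.740), and the interval of the fold ran from 0.845 to 1.78. The difference was 0.08 on the log2 scale without Penk-/- replicate 3, 0.16 without both libraries rich in *Pbsn*, and 0.50 without Penk-/- replicate 1, where the unadjusted p passed 0.05 and the adjusted p did not.

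ANGPTL4 is a secreted inhibitor of lipoprotein lipase, and PLIN2 coats lipid droplets inside cells. *Angptl4* (ENSMUSG00000002289, chr17:33992724-34000804) measured 45.4, 49.2, 110 and 33.1 in Penk-/- replicates 1 to 4, against 56, 38, 35.8 and 46.3 in Penk+/+ replicates 1 to 4 (normalized counts). Penk-/- replicate 3 again stood above the rest and the other 7 chimeras overlapped. The means of *Angptl4* were 59.6 ± 34.6 and 44.0 ± 9.18 (SD, n = 4 each), a log2 difference of 0.30 (SE 0.34, adjusted p = 0.827), with an interval of the fold from 0.723 to 2.10. The higher mean rests on that library: without Penk-/- replicate 3 the log2 difference was -0.04, and without both libraries rich in *Pbsn* it was -0.01. *Plin2* (ENSMUSG00000028494, chr4:86565912-86588459) measured 6646, 6103, 5351 and 6808 in Penk-/- replicates 1 to 4, against 8543, 6704, 5969 and 8919 in Penk+/+ replicates 1 to 4 (normalized counts). Penk+/+ replicates 1 and 4 were the highest libraries, and the lower part of the Penk+/+ range overlapped with Penk-/-. Its means were 6227 ± 657 and 7534 ± 1423 (SD, n = 4 each). The log2 difference was -0.26 (SE 0.13, unadjusted p = 0.0833, adjusted p = 0.581), the smallest p among the 8 genes, and the fold was 0.834 with an interval of 0.676 to 1.03. The log2 difference of *Plin2* was -0.10 without both libraries rich in *Pbsn*, -0.17 without Penk+/+ replicate 4, -0.12 with the epithelial marker score as covariate and -0.37 without Penk+/+ replicate 3, where alone among the left-out libraries its unadjusted p was below 0.05.

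The receptors PPARα and PPARγ are the transcription factors of the pathway. *Ppara* (ENSMUSG00000022383, chr15:85618656-85687067) measured 384, 278, 273 and 281 in Penk-/- replicates 1 to 4, against 371, 251, 228 and 281 in Penk+/+ replicates 1 to 4 (normalized counts). Replicate 1 stood apart at the top of each group. The log2 difference was 0.11 (SE 0.17, adjusted p = 0.879), with an interval of the fold from 0.8289 to 1.41, and the log2 difference was -0.0044 without Penk-/- replicate 1. Of the exon bases of its canonical transcript, 50.8% overlap with *Cdpf1* on the opposite strand. The libraries were stranded but the strand setting of the counting is not given in the sources used here, so *Ppara* counts are uncertain to that extent. *Cdpf1* amounted to 650 ± 23.3 and 643 ± 60.5 normalized counts (SD, n = 4 each). *Pparg* (ENSMUSG00000000440, chr6:115337675-115468268) measured 1399, 1192, 1142 and 1315 in Penk-/- replicates 1 to 4, against 1638, 1161, 1173 and 1377 in Penk+/+ replicates 1 to 4 (normalized counts). Penk+/+ replicate 1 was highest and the remaining chimeras overlapped. The log2 difference of *Pparg* was -0.07 (SE 0.12, adjusted p = 0.884), and the interval of the fold ran from 0.791 to 1.14. It was -0.0087 without both libraries rich in *Pbsn*. Permuting the genotypes exactly, over all 70 ways to split the libraries, gave two-sided p between 0.2 (*Acadl*) and 0.971 (*Acadm*) for the 8 genes. The smallest p this can give is 0.0286.

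**Figure D2:**
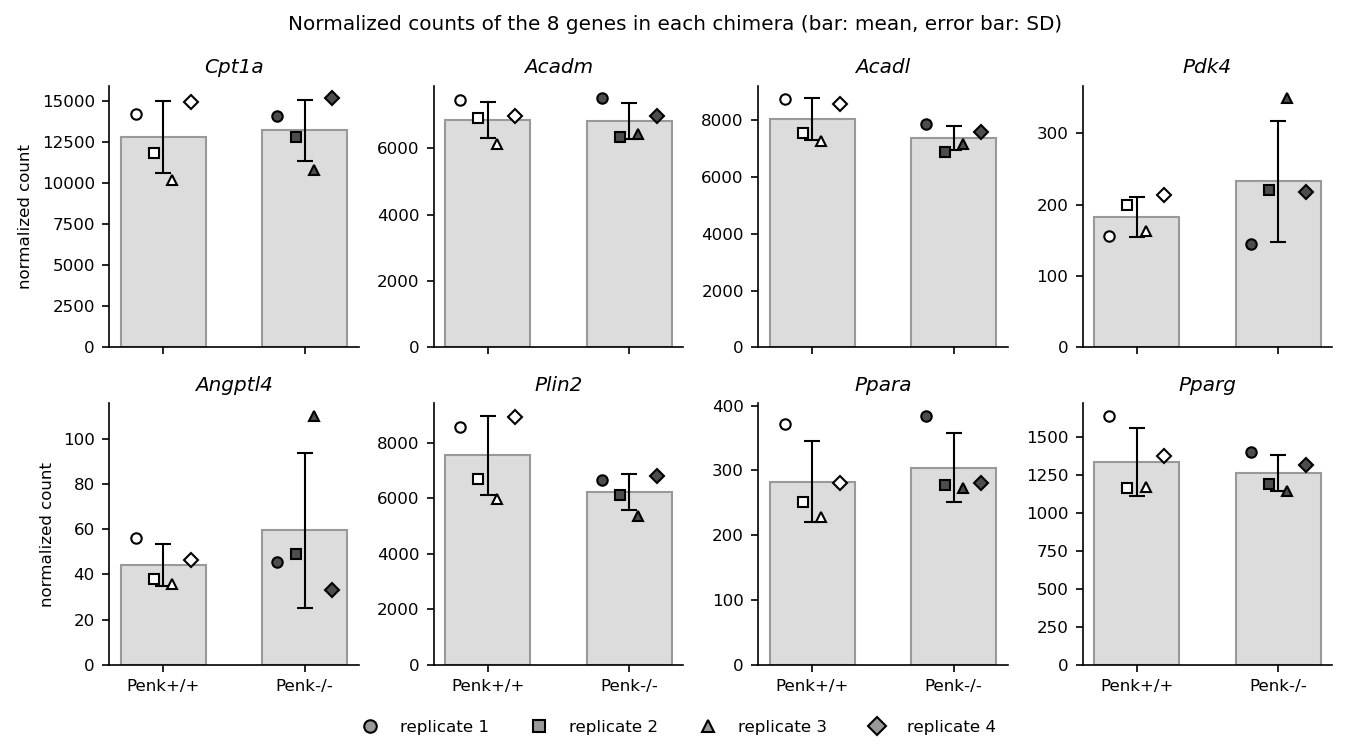
Normalized counts of each of the 8 genes in 4 Penk+/+ (white) and 4 Penk-/- (dark) chimeras, with bars at the mean, error bars of 1 SD and a marker shape for each replicate number. The groups overlap in every panel, and Penk-/- replicate 3 is the highest point for *Pdk4* (349) and *Angptl4* (110).

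The genotype comparison was extended to 7 lists of fatty acid genes, which together hold 98 genes. Rows were present for 95 of them and 93 passed the filter; *Fabp1*, *Cyp4a14* and *Fgf21* were not analysed here, and *Plin5* and *Cyp4a10* were below the filter. No gene of the lists had an adjusted p below 0.05. At an unadjusted p below 0.05, 1 of the 93 was higher and 7 were lower in Penk-/- chimeras, beside 4.3% and 5.33% of all genes, and the median log2 difference was -0.01 beside 0.01 over all genes. The groups did not overlap for 1 gene of the 93 that was higher and 2 that were lower, beside 2.89% and 2.74% of all genes. The total of 8 genes became 14 without Penk-/- replicate 1, 5 without Penk-/- replicate 2 or Penk+/+ replicate 1, and 4 without Penk-/- replicate 3.

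Of the 26 genes of mitochondrial fatty acid oxidation, 0 were higher and 1 was lower at an unadjusted p below 0.05, and the median log2 difference was -0.03. That gene was *Acsl3*, an acyl-CoA synthetase that activates long-chain fatty acids, mainly for lipid droplets. It measured 12037, 12355, 11039 and 12691 in Penk-/- replicates 1 to 4, against 20095, 17156, 15271 and 13346 in Penk+/+ replicates 1 to 4 (normalized counts). Every Penk-/- chimera lay below every Penk+/+ chimera (log2 difference -0.44, SE 0.12, unadjusted p = 0.00405, adjusted p = 0.343 in limma; exact permutation p = 0.0286, the smallest it can give).

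None of the 7 genes of ketone body synthesis and use had an unadjusted p below 0.05, and their median log2 difference was -0.01. *Oxct1*, which acts in the use of ketone bodies, had the smallest p of the list (13732 ± 1592 against 14899 ± 1686 normalized counts, SD, n = 4 each, log2 difference -0.12, unadjusted p = 0.283), followed by *Bdh1*, β-hydroxybutyrate dehydrogenase (log2 difference 0.01, unadjusted p = 0.877). Without both libraries rich in *Pbsn* the log2 difference of *Bdh1* was 0.04.

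Of the 14 genes of peroxisomal oxidation, 2 were lower and 0 higher at an unadjusted p below 0.05, with a median log2 difference of -0.03. *Acaa1a*, the peroxisomal thiolase that ends each round, is among them and stood at 3800 ± 261 in Penk-/- against 4602 ± 585 in Penk+/+ (normalized counts, SD, n = 4 each, log2 difference -0.27, SE 0.09, unadjusted p = 0.0165, adjusted p = 0.425). Without both libraries rich in *Pbsn* the log2 difference of *Acaa1a* was -0.15 and its unadjusted p 0.0797. The groups overlapped for *Acaa1a*, and no gene of the list passed the adjusted threshold.

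Of the 17 tested genes of the list of PPAR targets and lipid handling, 1 was higher and 1 lower at an unadjusted p below 0.05, with a median log2 difference of 0.14. The higher gene was *G0s2*, an inhibitor of adipose triglyceride lipase, at 139, 151, 297 and 159 in Penk-/- replicates 1 to 4, against 90.9, 90.3, 130 and 143 in Penk+/+ replicates 1 to 4 (normalized counts, log2 difference 0.67, SE 0.26, adjusted p = 0.460). Penk-/- replicate 3, the highest library for *Pdk4* and *Angptl4*, was also highest for *G0s2*. Without it the log2 difference of *G0s2* was 0.43 (unadjusted p = 0.0593), and with the adipocyte marker score as covariate it was 0.44 (unadjusted p = 0.0581). The unadjusted p of *G0s2* in limma was also above 0.05 without Penk+/+ replicate 1 (0.0731) or replicate 2 (0.0758), and with the epithelial marker score as covariate (0.0696). The lower gene was *Txnip*, an α-arrestin that limits glucose uptake (37379 ± 9196 against 49997 ± 3581 normalized counts, SD, n = 4 each, log2 difference -0.45, SE 0.17, adjusted p = 0.453). The log2 difference of *Txnip* was -0.28 without Penk-/- replicate 3 and also without both libraries rich in *Pbsn*. Its unadjusted p in limma was above 0.05 without Penk+/+ replicate 2 (0.0509) or replicate 3 (0.0596). The same held after quantile normalization (0.0636) and with the adipocyte (0.0627) or epithelial (0.0512) marker score as covariate.

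Among the 14 PPARs, partners and co-regulators, *Ppargc1a*, the coactivator PGC-1α that drives mitochondrial and fatty acid oxidation genes, was lower at an unadjusted p below 0.05. It measured 3416, 3585, 2850 and 3146 in Penk-/- replicates 1 to 4, against 4469, 3733, 4743 and 4099 in Penk+/+ replicates 1 to 4 (normalized counts). All Penk-/- chimeras lay below all Penk+/+ chimeras (log2 difference -0.39, SE 0.09, unadjusted p = 0.00229, adjusted p = 0.339 in limma; exact permutation p = 0.0286). *Rxrb*, an RXR partner of the PPARs named here after its values were seen, was the 1 gene of the lists without overlap in the higher direction (1825 ± 80.5 against 1681 ± 30.7 normalized counts, SD, n = 4 each, log2 difference 0.12, unadjusted p = 0.0592). The median log2 difference of the list was -0.03.

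The 6 kinases and phosphatases of pyruvate dehydrogenase had a median log2 difference of -0.03, and 2 were lower at an unadjusted p below 0.05. *Pdk1*, a kinase of the same family as *Pdk4*, had 3608 ± 341 and 4168 ± 215 normalized counts (SD, n = 4 each, log2 difference -0.21, SE 0.08, adjusted p = 0.439). *Pdp2*, a phosphatase that reverses the phosphorylation, had 3703 ± 552 and 4477 ± 422 (log2 difference -0.28, SE 0.11, adjusted p = 0.466). Without both libraries rich in *Pbsn* the log2 differences were -0.16 for *Pdk1* (unadjusted p = 0.0944) and -0.17 for *Pdp2* (unadjusted p = 0.166). The unadjusted p of *Pdk1* was also above 0.05 without Penk-/- replicate 2 (0.0529) or replicate 3 (0.0511), and that of *Pdp2* without either of these (0.0867 and 0.0812) or without Penk+/+ replicate 1 (0.0782) or replicate 4 (0.0766). For *Pdp2* it was above 0.05 as well in limma without trend (0.0533) and with the adipocyte marker score as covariate (0.0694). Of the 10 genes of fatty acid synthesis, 8 had a log2 difference above 0 and 0 an unadjusted p below 0.05, with a median of 0.22. Over all 19127 genes tested, 9780 had a log2 difference above 0. The smallest p of the list belonged to *Mlxipl*, which encodes the glucose-responsive activator ChREBP (log2 difference 0.24, unadjusted p = 0.0572), and to *Scd1*, the stearoyl-CoA desaturase (log2 difference 0.92, SE 0.53, unadjusted p = 0.117). *Scd1* ranged from 7408 to 44314 normalized counts in Penk-/- and from 4577 to 15809 in Penk+/+ chimeras, with Penk-/- replicate 3 highest. The log2 difference of *Scd1* was 0.44 without Penk-/- replicate 3, 0.61 without Penk+/+ replicate 2, 1.302 without Penk-/- replicate 4 (unadjusted p = 0.0314) and 0.28 with the adipocyte marker score as covariate (unadjusted p = 0.0141). The 11 adipocyte markers had log2 differences above 0 as well, with a median of 0.82, and were highest in the same library. Their part in the differences of the fatty acid synthesis list was not tested for the list as a whole. *Mlxipl* had an unadjusted p of 0.0294 without both libraries rich in *Pbsn* (log2 difference 0.29), 0.0179 without Penk-/- replicate 1 and 0.0129 without Penk+/+ replicate 4.

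**Figure D3:**
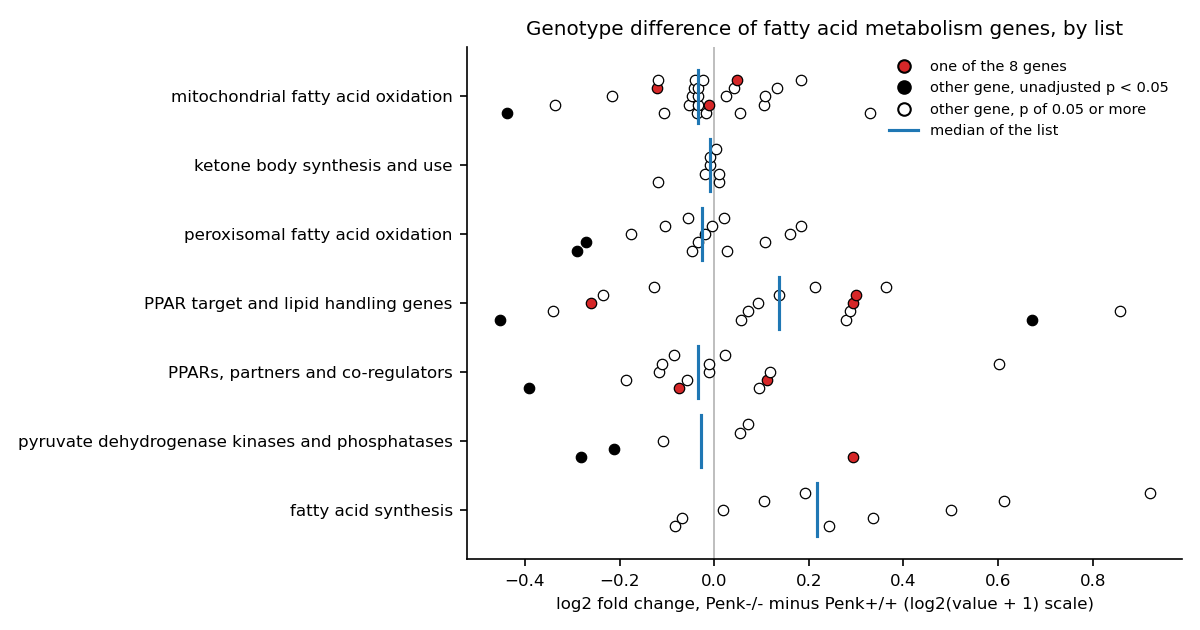
Log2 difference between Penk-/- and Penk+/+ chimeras for each tested gene of the 7 lists, with 1 point per gene (red, one of the 8 genes; black, unadjusted p below 0.05; white, other genes) and a blue line at the median of each list. The medians of 5 lists lie between -0.03 and -0.01, and those of the PPAR target and fatty acid synthesis lists at 0.14 and 0.22.

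The 8 genes did not vary as a single block across mice. *Cpt1a*, *Acadm*, *Acadl*, *Plin2*, *Ppara* and *Pparg* each had a positive correlation coefficient with the others over the 8 libraries, whereas those of *Pdk4* and *Angptl4* with these 6 were below 0 except for *Angptl4* with *Ppara*. The 15 pairs among the 6 genes had Pearson's r of log2(normalized count + 1) from 0.430 to 0.923, and the 12 pairs between the 6 and *Pdk4* or *Angptl4* had r from -0.556 to 0.182, of which 11 were below 0. The 6 genes were grouped by these same coefficients, so the gap between the ranges is no test of the grouping. The place of *Angptl4* depended in part on its extreme libraries. Without the 2 libraries farthest from its median, its r was 0.577 with *Plin2*, 0.760 with *Ppara* and 0.783 with *Pparg*. Without the 2 farthest from the median of the other gene, it was -0.008 with *Cpt1a*, -0.520 with *Acadm* and -0.392 with *Acadl*. The median r of all 28 pairs was 0.599, and 10 pairs had r of at least 0.7. Exact permutation over all 40320 pairings of the libraries, adjusted over the 28 pairs, left 2 pairs below 0.05 by r and 0 by Spearman's rho.

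Both of these pairs involved *Acadl*. *Acadl* and *Plin2* had r = 0.923 (exact permutation p = 0.00325, adjusted 0.0455) and rho = 0.833 (p = 0.0154, adjusted 0.102, exact permutation), and r = 0.680 without the 2 libraries farthest from the median of *Acadl*. *Acadl* and *Pparg* had r = 0.868 (exact permutation p = 0.0031, adjusted 0.0455) and rho = 0.810 (p = 0.0218, adjusted 0.102, exact permutation), and r = 0.716 without those 2 libraries. Penk+/+ replicates 1 and 4 were the highest libraries for *Acadl* and *Plin2*. Both calls were lost after quantile normalization, where r was 0.696 and 0.455, and after the line on the epithelial marker score was removed, where r was 0.723 and 0.535. Leaving out any 1 library kept r of *Acadl* and *Plin2* between 0.893 and 0.961, but the adjusted p stayed below 0.05 only without Penk-/- replicate 2 (0.0389) and reached 0.175 without Penk+/+ replicate 1. For *Acadl* and *Pparg* r lay between 0.777 and 0.911, with the same range of adjusted p and the same exception.

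As a background for these coefficients, each member was also set beside all other genes tested. *Pparg* had r of at least 0.7 with 5 of the 7 other members, against 9.82% of all genes tested. *Acadm* did so with 4 (9.05% of all genes), and *Cpt1a*, *Acadl* and *Plin2* with 3 each (7.49%, 8.36% and 8.84%). *Ppara* reached it with 2 members (7.08%), *Acadm* and *Pparg*. *Pdk4* and *Angptl4* reached it with 0 of 7, against 7.3% and 2.42% of all genes. *Pdk4* and *Angptl4* were nearest to each other (r = 0.648, exact permutation p = 0.105; rho = 0.262, exact permutation p = 0.536), and this rested on a single library: r was -0.263 without Penk-/- replicate 3 and -0.358 without both libraries rich in *Pbsn*.

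**Figure D4:**
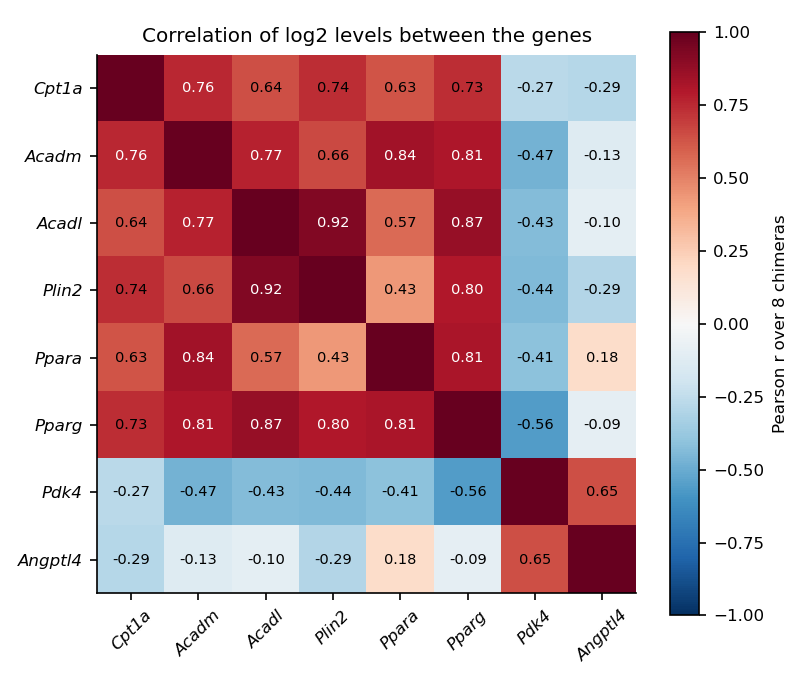
Pearson's r of log2(normalized count + 1) over the 8 chimeras for each pair of the 8 genes, from -1 (blue) to 1 (red), with the value in each cell. *Cpt1a*, *Acadm*, *Acadl*, *Plin2*, *Ppara* and *Pparg* form a red block from 0.430 to 0.923, and *Pdk4* and *Angptl4* stand outside it. The genes were grouped and ordered by these same coefficients.

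The genes of the whole table whose levels followed each member most closely are the highest of 19126 coefficients, so high values are selected. The lists above hold 93 of the 19127 genes tested, so few of the nearest genes would be fatty acid genes by share alone. Over 8 libraries, *Cpt1a* was followed by *Rras2* (r = 0.986), *Sdc1* (0.984) and *Ubl3* (0.982), and *Acadm* by *Zmym2* (0.996), *Csnk2a1* (0.976) and *Kbtbd11* (0.973). *Acadl* was followed by *Sqstm1* (r = 0.986), *Cyp2d9* (0.981) and *Ank3* (0.969), and *Plin2* by *Ssbp3* (0.993), *Atp6v0d1* (0.984) and *Cx3cl1* (0.975). The receptors were followed by *Bzw1* (r = 0.987), *Ammecr1l* (0.974) and *Gm13340* (0.971) for *Ppara*, and by *Rep15* (0.987), *Ell2* (0.979) and *Mon2* (0.978) for *Pparg*. *Pdk4* was followed by *Asrgl1* (r = 0.969), *Lrrc55* (0.967) and *Dusp22* (0.963). For *Angptl4* they were *Zwint* (r = 0.940), *Agpat2* (0.934), an enzyme of triglyceride synthesis, and *Zfp324* (0.931). No other member was among the 3 nearest genes of any member, and with 8 members among 19127 genes tested few would be by share alone.

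Levels of several members moved with the markers of the cell types in the biopsy. The 48 relations of the 8 genes with 6 marker lists were tested by exact permutation, with adjustment over the 48, and 2 had an adjusted p below 0.05 by r and 0 by rho. The share of all genes tested with such coefficients was not computed for any marker list. The relations can therefore not be called particular to the 8 genes. *Acadm* was lower where smooth muscle markers were higher (r = -0.958, exact permutation p = 0.000818, adjusted 0.0232; rho = -0.905, exact permutation p = 0.00456, adjusted 0.0695; r = -0.948 without the 2 farthest libraries). *Acadl* was lower where macrophage markers were higher (r = -0.899, exact permutation p = 0.000967, adjusted 0.0232; rho = -0.810, exact permutation p = 0.0218, adjusted 0.131; r = -0.703 without the 2 farthest libraries). Other members had coefficients of the same sign with these lists: r with macrophage markers was -0.923 for *Pparg* (adjusted p = 0.0545 by exact permutation) and -0.814 for *Plin2* (adjusted p = 0.0758 by exact permutation), and r with smooth muscle markers was -0.807 for *Acadl* (adjusted p = 0.0792 by exact permutation). After quantile normalization r of *Acadm* with smooth muscle and of *Acadl* with macrophages were -0.554 and -0.527 and neither passed. The adjusted p of *Acadm* with smooth muscle was above 0.05 without Penk-/- replicate 3 (0.0540), Penk+/+ replicate 1 (0.0667) or Penk+/+ replicate 2 (0.0595). That of *Acadl* with macrophages exceeded 0.05 without any of these 3, and also without Penk-/- replicate 1 (0.0730) or Penk+/+ replicate 4 (0.0939).

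Coefficients with epithelial markers were positive for *Cpt1a*, *Acadm*, *Acadl*, *Plin2*, *Ppara* and *Pparg*, without passing the threshold. With the epithelial score r was 0.854 for *Acadm*, 0.840 for *Acadl*, 0.864 for *Plin2* and 0.852 for *Pparg*, each with an adjusted p of 0.0545 by exact permutation. It was 0.762 for *Cpt1a* and 0.648 for *Ppara* (adjusted p = 0.105 and 0.194 by exact permutation). The 9 epithelial markers summed to 341891 to 476957 normalized counts in Penk-/- and 418684 to 518264 in Penk+/+ chimeras, with 7 of 9 log2 differences below 0 and a median of -0.18. The sums of the 7 smooth muscle markers ranged from 144236 to 247473 in Penk-/- and from 152323 to 237788 in Penk+/+ chimeras, and those of the 6 macrophage markers from 5799 to 8079 and from 4214 to 7510. All 6 macrophage markers had log2 differences above 0 (0.24 to 0.31). Of all 19127 genes tested, 9780 had a log2 difference above 0 and 9347 below 0. None of these markers had an unadjusted p below 0.05, none was at 0, and their part in the levels of the 8 genes was not tested beyond the fits with a score as covariate. With the epithelial score as covariate *Cpt1a* had a log2 difference of 0.20 and an unadjusted p below 0.05, with an adjusted p of 0.400 (0.400 to 0.990 over all alternatives).

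*Angptl4* and, less closely, *Pdk4* were higher where adipocyte markers were higher, and neither relation passed the adjusted threshold. With the score of the 11 adipocyte markers r was 0.863 for *Angptl4* (exact permutation p = 0.00712, adjusted 0.0545; rho = 0.762, exact permutation p = 0.0368, adjusted 0.147; r = 0.659 without the 2 farthest libraries). For *Pdk4* it was 0.636 (exact permutation p = 0.0897, adjusted 0.196; rho = 0.405, exact permutation p = 0.327; r = 0.278 without the 2 farthest libraries). *Pdk4* had larger coefficients with the epithelial score (r = -0.747, exact permutation p = 0.0308, adjusted 0.105; rho = -0.667; r = -0.202 without the 2 farthest libraries) and the accessory gland score (r = 0.716, exact permutation p = 0.0445, adjusted 0.126; rho = 0.595; r = 0.509 without the 2 farthest libraries). *Angptl4* also had a positive r with the accessory gland score, 0.620 (exact permutation p = 0.0964, adjusted 0.200). Its rho with that score was 0.762, the same as with the adipocyte score, and r was 0.713 without the 2 farthest libraries. Penk-/- replicate 3, the highest library for both genes, had the highest level of adipocyte markers: the 11 markers summed to 23900 normalized counts there, to 11486 in Penk+/+ replicate 4 and to between 2786 and 8266 in the others. All 11 log2 differences were above 0, as were 9780 of all 19127 genes tested, with a median of 0.82 for the 11, and 0 had an unadjusted p below 0.05. None of the 11 was at 0 in any library. Without Penk-/- replicate 3, r was 0.658 for *Angptl4* and 0.090 for *Pdk4*, and without both libraries rich in *Pbsn* it was 0.707 and -0.183. These 2 libraries alone are too few for a value. With the adipocyte score as covariate the genotype difference of *Angptl4* was -0.02 on the log2 scale. The summed accessory gland markers ranged from 181 to 213921 in Penk-/- and from 103 to 222006 normalized counts in Penk+/+ chimeras, with *Pbsn* at 0 in Penk-/- replicate 1 and Penk+/+ replicate 3. Of the 6 skeletal muscle markers 3 passed the filter, and all 6 summed to between 254 and 525 normalized counts.

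**Figure D5:**
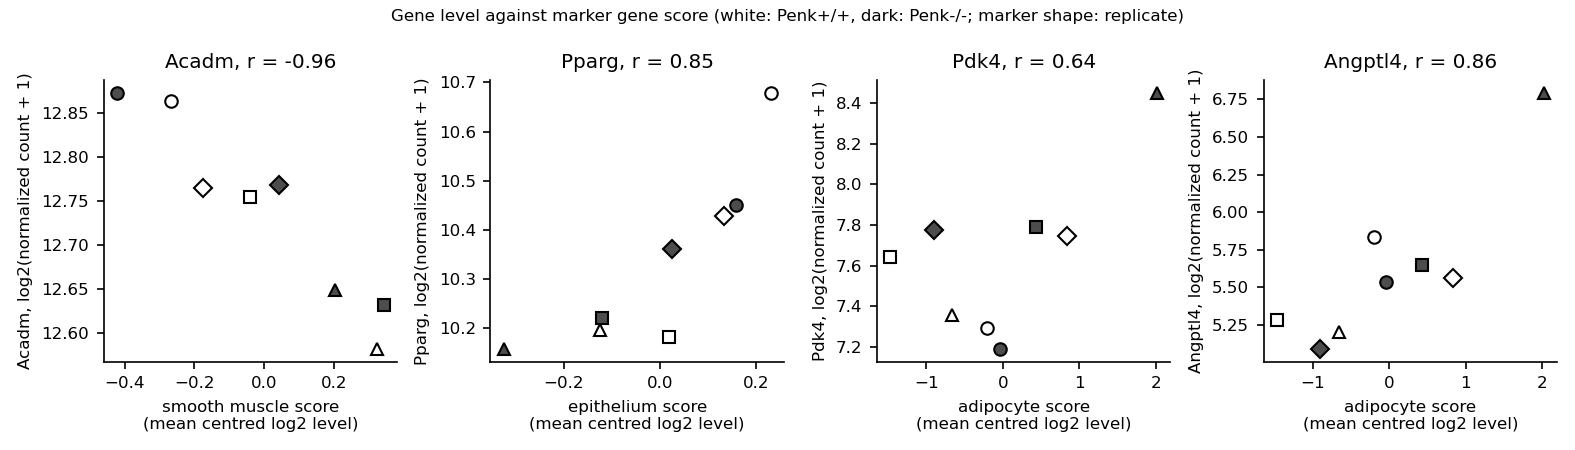
Level of *Acadm*, *Pparg*, *Pdk4* and *Angptl4*, as log2(normalized count + 1), against the score of a marker list, which is the mean of its centred log2 levels, with 1 point per chimera (white, Penk+/+; dark, Penk-/-; marker shape, replicate number). *Acadm* is lower at higher smooth muscle scores (r = -0.958), *Pparg* is higher at higher epithelial scores (0.852), and Penk-/- replicate 3 stands alone at the upper right for *Pdk4* and *Angptl4*.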

How the data were processed

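Poly-A RNA of colon biopsies was sequenced in stranded, paired-end libraries from 4 Penk-/- and 4 Penk+/+ chimeras, and groups were taken from the sample labels. Per the labels, the submitters' processing notes name FastQC, STAR 2.7.8a, DESeq2 1.30.0 and GRCm39. The authors deposited normalized counts, a signal per gene and mouse that is neither a raw count nor a log value. Dividing each library by the value of a single read gave whole numbers for 100% of genes (within 0.01) and a depth of 33.1 M to 50.7 M reads. No library repeats another (chi-square of any pair over its degrees of freedom, 11.2 or more). Nothing states that the mice of a group differ in litter or cage, and p-values measure the spread between these mice.

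Of 26008 identifiers, 25776 were named from GENCODE M39 on GRCm39. The genotype test was limma 3.58.1 under R 4.3.3 (trend, two-sided, Benjamini-Hochberg) on log2(value + 1), for 19127 genes with a mean of at least 10. Fold changes are on this scale, which understates changes of low genes. Single genes were also tested by exact permutation over 70 assignments, and correlations over 40320 pairings, with Python 3.11.15, numpy 2.4.6, scipy 1.17.1 and pandas 2.3.3. Figures were drawn with matplotlib 3.10.9. A marker score is the mean of log2 levels centred per gene. The tests were checked on simulated data.

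The members and lists were chosen with earlier results of these data known. Named genes are the 8 members, the list genes with an unadjusted p below 0.05 or else the 2 smallest p of a list, the 3 genes nearest to each member, *Penk* and *Pbsn*. *Rxrb* and *Cdpf1* were added, and some list genes are counted but not reported by name here. Other pseudocounts, filters, normalization, covariates, a replicate block and left-out libraries were tried as alternatives, and voom and merged exon lengths were added after the data were seen. Planned count models on recovered reads were not run.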

Additional observations from a re-analysis of the deposited data

Results flagged for a closer look

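In groups of 4, a library was noted when its gap to the nearest other library exceeded Dixon's 95% limit as a share of the range of the group. Of 52 groups examined 5 passed, and chance gives about 1 in 20, or 2.6. Penk-/- replicate 1 was set apart upward for *Ppara*, with a gap of 0.927 of the range (384 normalized counts against 273 to 281), and downward for *Mlxipl*, with 0.882 (1378 against 1668 to 1707), and for the macrophage score, with 0.862. Penk-/- replicate 3 was set apart upward for *G0s2*, with 0.875 (297 against 139 to 159). Penk+/+ replicate 2 was set apart downward for *Pdk1*, with 0.968 (3846 against 4268 to 4281).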

How the results depend on the processing

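The number of the 8 genes, and of the listed pathway genes, with an adjusted p below 0.05 was 0 under each of the 20 alternative settings. Over all genes the number was 0, but 1 after quantile normalization and with the epithelial score as covariate (*Scnn1g* each time), 1 with the replicate block (*Duox2*), and 0 to 6 without 1 library, the 6 without Penk-/- replicate 1. At an unadjusted p below 0.05 the replicate block gave 2938 genes instead of 1842, 2 of the 8 genes instead of 0 (*Acadl* and *Plin2*) and 14 pathway genes instead of 8. The number among the 8 was 1 with the epithelial score as covariate and 0 to 1 without 1 library (*Pdk4* without Penk-/- replicate 1, *Plin2* without Penk+/+ replicate 3). The number of pathway genes was 13 with voom and 4 to 14 without 1 library. It was 14 without Penk-/- replicate 1, 5 without Penk-/- replicate 2, 4 without Penk-/- replicate 3 and 5 without Penk+/+ replicate 1. The labels do not say whether the replicate numbers pair the mice. Deviations of same-numbered libraries correlated by 0.145, -0.0444, -0.321 and -0.162 for replicates 1 to 4, and each library correlated better with another number. Low correlations of this kind cannot exclude a shared batch or order, which was not tested. With the replicate block the SE was 0.04 instead of 0.14 for *Cpt1a*, 0.06 instead of 0.13 for *Plin2* and 0.36 instead of 0.34 for *Angptl4*. With voom 71.1% of 2242 genes with an unadjusted p below 0.05 were higher in Penk-/-, against 44.6% of 1842, with a shift of the median log2 difference to 0.07. The voom fit scaled recovered reads by the total of each library and did not use the deposited normalization, so it differs from the main test in scaling too.

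The number of correlated pairs, 2, became 0 after quantile normalization, with the epithelial line removed and without both libraries rich in *Pbsn*, 4 with the adipocyte line removed, 10 with values centred on their genotype, and 0 to 2 without 1 library (2 without Penk-/- replicate 2, 1 without Penk+/+ replicate 2). Centring and line removal use up freedom that the permutation does not count. Pairs with r of at least 0.7 fell from 10 to 2 after quantile normalization and to 3 with the epithelial line removed. The number of relations with marker lists, 2, became 0 after quantile normalization and without both *Pbsn*-rich libraries, and 0 to 3 without 1 library (3 without Penk-/- replicate 1, 0 without Penk-/- replicate 3, Penk+/+ replicate 1 or Penk+/+ replicate 2, 1 without Penk+/+ replicate 4).

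Directions turned for the values below. The log2 difference of *Acadm* was 0.0525 after quantile normalization, 0.0501 with voom, 0.00635 with the adipocyte and 0.0636 with the epithelial score as covariate, 0.0244 without both *Pbsn*-rich libraries, and -0.0639 to 0.0300 without 1 library. *Angptl4* came to -0.0211 with the adipocyte score and -0.0130 without the *Pbsn*-rich libraries, and *Pparg* to 0.0418 with the epithelial score. Without 1 library *Cpt1a* ranged from -0.0552 to 0.141, *Angptl4* from -0.0439 to 0.525, *Ppara* from -0.0044 to 0.251, *Pparg* from -0.137 to 0.0283 and *Bdh1* from -0.0200 to 0.0496, and r of *Pdk4* and *Angptl4* from -0.263 to 0.770 (-0.358 without both *Pbsn*-rich libraries). The cause of these changes was not tested. Exact permutation left 0 of the 8 genes below 0.05 under each alternative scaling and without each library in turn; with both *Pbsn*-rich libraries left out, 3 against 3 cannot reach 0.05, and none is given. Planned count models were not run.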
